A study of Mus musculus with 12 samples.

Results

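The 10 genes described here encode proteins of the nuclear lamina and its inner membrane (Lmna, Lmnb1, Lmnb2, Lbr, Emd and Tmpo) and high mobility group proteins of chromatin (Hmgb1, Hmgb2, Hmga1 and Hmga2). They were chosen by name, as genes known from work on cellular senescence, among 19507 genes or transcripts tested. Earlier results of these data were known when they were chosen. The arrays carry 26 probes of these genes among 39429 probes. All 10 genes passed the filter on dim probes, and 25 of the 26 probes were kept. The probe not kept belongs to Hmgb1 and had a spot called an outlier on 1 array.

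RNA was taken from mouse embryonic fibroblasts (MEFs), a primary culture prepared from E12.5 embryos, and 100 ng per sample was hybridised to Agilent arrays with 1 dye. The 12 arrays form 4 groups of 3 replicates: Itpr2 knock-out (KO) cells after 5 passages (KO late), wild-type (WT) cells after 5 passages (WT late), KO cells after 3 passages (KO early) and WT cells after 3 passages (WT early). Itpr2 encodes an inositol trisphosphate receptor, through which calcium leaves the endoplasmic reticulum. The design text of the series names 3 independent animals of each genotype for the fibroblasts, and liver tissue that was not analysed here. The sources used here give neither the strain nor the deleted part of Itpr2.

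The lamina is a meshwork of intermediate filaments under the inner nuclear membrane. Lamins A and C come from Lmna by splicing, and B-type lamins come from Lmnb1 and Lmnb2. Inner membrane proteins such as the lamin B receptor, emerin and the lamina-associated polypeptides tie this meshwork to chromatin. HMGB proteins bend DNA, and HMGA proteins bind the minor groove of AT-rich DNA. In human and mouse fibroblasts, loss of lamin B1 and release of HMGB1 from the nucleus are used as signs of senescence, and in human fibroblasts HMGA proteins take part in the compacted chromatin of senescent cells.

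Levels below are log2 intensities relative to the 75th percentile of the array, so 0 is the level of that percentile. They serve to compare arrays for 1 probe, and no level of a probe is set against that of another probe. Between 59.1% and 67.5% of the probes on an array were well above background, and replicates correlated between 0.985 and 0.997 over all genes. All 12 fibroblast markers listed were well above background on every array. The single Itpr2 probe lay between 1.72 and 1.83 on KO late arrays, against 1.53 to 1.74 on WT late arrays, and between 1.13 and 1.58 on KO early arrays, against 0.67 to 1.23 on WT early arrays. It was not lower in the KO groups. Where it lies relative to the deletion is not known here, so it does not check the labels. Xist, the RNA made by the inactive X chromosome of female cells, was above background on KO late replicates 1 and 2, WT late replicate 1 and WT early replicate 1, and on none of the other 8 arrays. The Y-linked genes Ddx3y and Eif2s3y were above background on all KO early arrays, on KO late replicates 1 and 3, and on replicates 2 and 3 of both WT groups. KO late replicate 1 thus carried Xist and Y-linked transcripts together (Xist at -1.09 and Ddx3y at -0.14), and KO late replicate 2 carried Xist without them, unlike the KO early arrays of the same numbers. In both genes KO late replicate 1 lay between replicates 2 and 3 (Xist at -0.17 and -8.67, Ddx3y at -7.56 and 0.95). KO early replicate 2 likewise lay between replicates 1 and 3 in Hmga1, Hmga2 and Lmna. The p-values below take the arrays of a group as independent, and whether they are was not tested. KO late replicate 2 (Xist at -0.17, Ddx3y at -7.56) matched no KO early array in these genes (Ddx3y at 0.76 to 0.83), so it does not continue the culture of any KO early array. KO late replicate 1 matched no KO early array in Xist either (-8.11 to -7.01 on those arrays), so it does not continue 1 of those cultures alone. For KO late replicate 3 this is not known here. Passage in KO cells below therefore means KO late against KO early arrays, not 1 culture followed over time. Differences of KO late from KO early within slides compare arrays that share a slide. The replicate number is also the slide: each of the 3 slides held 1 array of every group. The position on the slide is the same for all arrays of a group, so position and group cannot be told apart.

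Few of the 10 genes changed, and those that did were lower on the KO late arrays. When KO was set against WT at late passage, 1 of 10 genes had an adjusted p under 0.05 (limma, Benjamini-Hochberg), and it was Hmga1, which was lower; 7.8% of all genes passed the same test, and 4.32% passed it as lower. The arrays of KO late and WT late did not overlap for 5 of the 10 genes (Hmga1, Hmga2 and Lmna lower, Hmgb1 and Hmgb2 higher). Of all genes, 39.4% did not overlap there, 20.2% lower and 19.2% higher. Between KO early and WT early arrays, 0 of 10 genes passed with limma, against 0.0359% of all genes. At an unadjusted p under 0.05 there were 0 of 10, against 1191 of all 19507 genes. Only Lbr did not overlap between these groups, and it was higher in KO early. Of all genes, 9.64% did not overlap, 5.6% with KO higher.

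With passage in KO cells, 3 of 10 genes fell (Hmga1, Hmga2 and Lmna) and 0 rose, against 19.1% of all genes called, 9.27% lower and 9.79% higher. The same 3 genes did not overlap between KO late and KO early arrays, nor did Lmnb1, which was higher; 52% of all genes did not overlap, 29.9% lower and 22.1% higher. With passage in WT cells, 0 of 10 genes passed with limma, against 10.6% of all genes. At an unadjusted p under 0.05 there was 1 of 10, Lmnb2, against 5552 of all 19507 genes. In WT cells Lmnb2 and Emd did not overlap, both lower at late passage. Of all genes, 27.8% did not overlap, 14.1% lower. The passage response itself was tested for a difference between KO and WT, and 0 of 10 genes passed, with 0.0923% of all genes passing. At an unadjusted p under 0.05, 2 of the 10 genes differed in that test (Hmga1 and Hmga2), against 2714 of all 19507 genes. The KO late arrays enter both comparisons in which genes were called, so those results share samples.

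**Figure D1:**
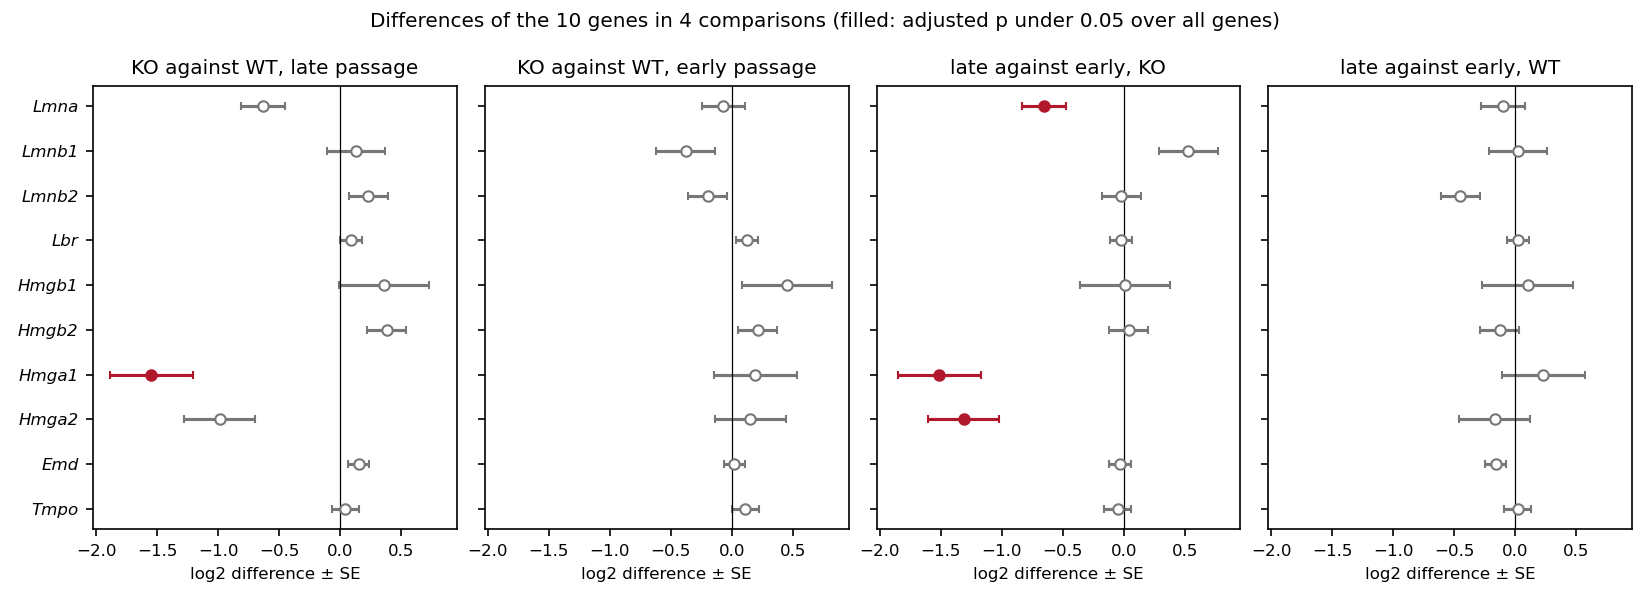
Log2 differences of the 10 genes with their standard errors in the 4 comparisons of groups, with KO over WT in the left pair of panels and late over early passage in the right pair. Filled red points passed an adjusted p under 0.05 over all 19507 genes (limma). Hmga1 is filled for KO against WT at late passage, and Hmga1, Hmga2 and Lmna are filled for late against early passage in KO cells.

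Hmga1 and Hmga2 encode the HMGA proteins, which are abundant in embryonic cells. On the log2 scale, Hmga1 (probe A_51_P483118) lay at 3.96, 3.90 and 4.07 on KO late arrays, against 5.36, 5.55 and 5.67 on WT late arrays. It lay at 6.21, 5.52 and 4.73 on KO early arrays, against 4.68, 5.52 and 5.68 on WT early arrays. The 3 KO late arrays were thus the lowest of all 12 and close to each other, while the early arrays spread widely in both genotypes. Hmga1 was 2.92-fold lower in KO late than in WT late cells (log2 difference -1.55 ± 0.34 SE, n = 3 each, limma, adjusted p = 0.026). It fell with passage in KO cells by 1.51 ± 0.34 on the log2 scale, or 2.84-fold (adjusted p = 0.014). In WT cells the difference between late and early passage was 0.23 ± 0.34 (adjusted p = 0.7), and at early passage KO minus WT was 0.19 ± 0.34 (adjusted p = 0.9). The passage response of KO minus that of WT was -1.74 ± 0.49 for Hmga1, which did not pass the test (adjusted p = 0.19).

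Within the 3 slides, Hmga1 differed between KO late and WT late by -1.39, -1.65 and -1.60, so every slide gave a similar difference. Between KO late and KO early the slides gave -2.24, -1.62 and -0.66, all lower but unequal in size. With the slide as a block, both calls remained, with adjusted p-values of 0.048 between KO late and WT late and 0.028 with passage in KO cells. Without the 2 KO late arrays that carry Xist, KO late replicate 3 alone differed from WT late by -1.45 (adjusted p = 0.35) and from KO early by -1.41 (adjusted p = 0.24). The call between KO late and WT late was also lost without any 1 of the 3 KO late arrays or WT late replicate 2 or 3 (differences of -1.59 to -1.48, adjusted p of 0.059 to 0.093), and the passage call in KO cells without KO late replicate 1 (adjusted p = 0.05 as rounded, over the threshold). Without the filter on dim probes the call between KO late and WT late was lost too (-1.55, adjusted p = 0.063). In the fit with KO late replicate 3 alone, that array is taken to vary like the other groups, and 1 gene of all 19507 passed between KO late and WT late.

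The labelled accessions of the Hmga1 probes differ, and the gene has 16 RefSeq transcripts. A further probe (A_55_P2076057), annotated to another transcript, lay at -3.33, -3.34 and -3.53 on KO late arrays, against -1.70, -1.40 and -1.65 on WT late arrays. These groups did not overlap either, and the difference was -1.82 ± 0.39 (adjusted p = 0.024 over 24359 probes tested one by one). Against KO early, this probe fell by 1.39 ± 0.39 (adjusted p = 0.034). The dimmest Hmga1 probe (A_66_P102232), above background on 10 of 12 arrays, gave -0.58 ± 0.3 between KO late and WT late (adjusted p = 0.28) and -0.12 ± 0.3 with passage in KO cells (adjusted p = 0.81). A copy of the gene, Hmga1b, is named at 1 other locus, and whether a probe reads it too is not known here.

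Hmga2, a target of the let-7 miRNAs that is high in embryonic tissue, was also lowest on the KO late arrays. Its probe A_52_P300730 lay at 2.04, 1.91 and 2.26 on KO late arrays, against 2.88, 3.06 and 3.24 on WT late arrays. On KO early arrays it lay at 4.04, 3.44 and 2.66, against 2.99, 3.51 and 3.17 on WT early arrays. Every KO late array was below each of the other 9 arrays. Hmga2 fell 2.48-fold with passage in KO cells (log2 difference -1.31 ± 0.29 SE, limma, adjusted p = 0.013). KO late minus WT late was -0.99 ± 0.29, which did not pass (adjusted p = 0.064). In WT cells late minus early passage was -0.17 ± 0.29 (adjusted p = 0.74), and the passage response of KO minus that of WT was -1.14 ± 0.41 (adjusted p = 0.28).

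The other Hmga2 probe, A_55_P2043921, gave -1.24 ± 0.25 with passage in KO cells (adjusted p = 0.0085) and -0.90 ± 0.25 between KO late and WT late (adjusted p = 0.051). Both Hmga2 probes therefore passed in the first comparison and neither in the second. Within slides, Hmga2 changed with passage in KO cells by -1.99, -1.53 and -0.40, and it differed between KO late and WT late by -0.84, -1.15 and -0.98. The slide as a block left the passage call in KO cells in place (adjusted p = 0.024). Without the 2 KO late arrays that carry Xist, Hmga2 in KO late replicate 3 differed from KO early by -1.12 (adjusted p = 0.26).

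Lmna, which encodes lamins A and C, is read by 1 probe, and it is not known here whether that probe reads both. It lay at 4.35, 4.20 and 4.44 on KO late arrays, against 4.96, 4.87 and 5.04 on WT late arrays. On KO early arrays Lmna lay at 5.35, 4.96 and 4.65, against 4.83, 4.98 and 5.35 on WT early arrays. As with the HMGA genes, the KO late arrays were the lowest of the 12. Lmna fell 1.57-fold with passage in KO cells (log2 difference -0.65 ± 0.18 SE, limma, adjusted p = 0.03). KO late minus WT late was -0.63 ± 0.18, with no overlap of the arrays but short of the threshold (adjusted p = 0.059). In WT cells late minus early passage was -0.10 ± 0.18 (adjusted p = 0.76), and at early passage KO minus WT was -0.07 ± 0.18 (adjusted p = 0.93).

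The passage response of KO minus that of WT was -0.56 ± 0.25 for Lmna (adjusted p = 0.36). Within slides the difference between KO late and WT late was even, at -0.62, -0.66 and -0.60, and that between KO late and KO early was not, at -1.0, -0.75 and -0.21. With the slide as a block, the passage call in KO cells remained (adjusted p = 0.046). Without the 2 KO late arrays that carry Xist, Lmna in KO late replicate 3 differed from KO early by -0.54 (adjusted p = 0.39). The passage call in KO cells was lost without any 1 of the 3 KO late arrays or KO early replicate 1 or 2 (adjusted p of 0.057 to 0.1), with differences of -0.71 to -0.47. It was also lost without the filter on dim probes (-0.65, adjusted p = 0.069).

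**Figure D2:**
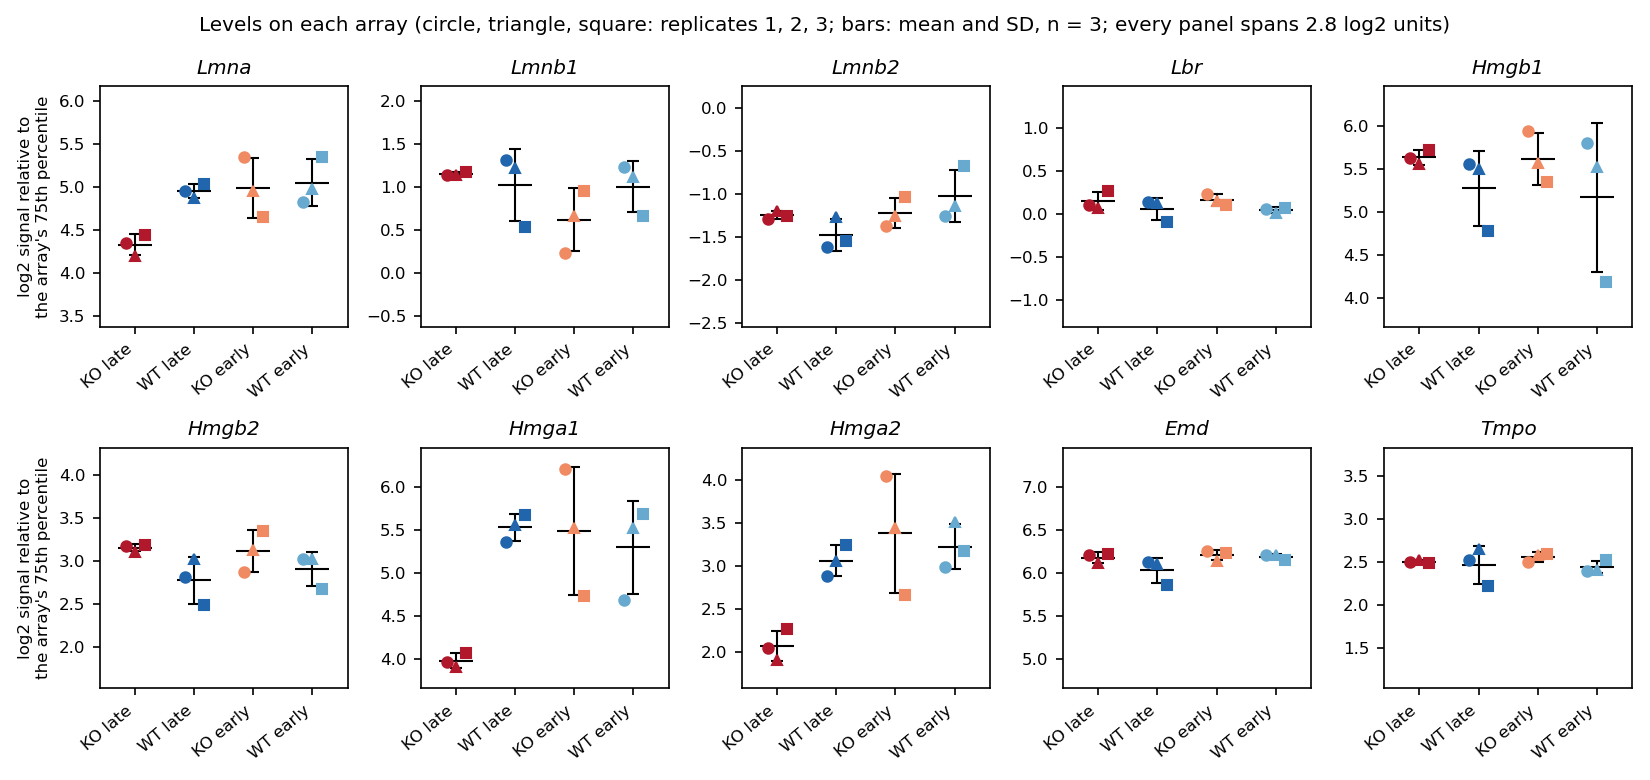
Log2 level of each of the 10 genes on each array, relative to the 75th percentile of the array, for KO late, WT late, KO early and WT early. Points are single arrays with 1 symbol per replicate number, bars are the mean and SD of 3 arrays, and every panel spans the same range of log2 units. The KO late points of Hmga1, Hmga2 and Lmna lie below all other points of their panels, and those of Lbr, Emd and Tmpo differ little between groups.

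The sequences around the annotated start sites of the 3 genes that were lowest on KO late arrays are given here because the genes moved together, from RefSeq on build GRCm38.p6. They run from 250 bases before to 50 bases after the start, 5′ to 3′ on the strand of the gene, with matches to the searched motifs in capitals. Hmga1 lies on the plus strand (chr17:27556324-27556623), Hmga2 on the minus strand (chr10:120476420-120476719) and Lmna on the minus strand (chr3:88503303-88503602).
Hmga1: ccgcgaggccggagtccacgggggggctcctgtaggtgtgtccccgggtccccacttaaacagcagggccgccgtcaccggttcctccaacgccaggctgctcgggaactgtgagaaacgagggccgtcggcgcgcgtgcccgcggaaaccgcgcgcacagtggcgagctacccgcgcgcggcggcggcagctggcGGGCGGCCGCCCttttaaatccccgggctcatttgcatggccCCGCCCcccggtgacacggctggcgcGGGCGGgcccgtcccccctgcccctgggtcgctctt
Hmga2: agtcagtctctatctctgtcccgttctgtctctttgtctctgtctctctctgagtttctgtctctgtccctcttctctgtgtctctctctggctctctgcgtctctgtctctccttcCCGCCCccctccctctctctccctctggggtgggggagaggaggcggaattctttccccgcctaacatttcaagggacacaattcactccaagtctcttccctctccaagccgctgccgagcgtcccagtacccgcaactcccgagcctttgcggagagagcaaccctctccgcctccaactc
Lmna: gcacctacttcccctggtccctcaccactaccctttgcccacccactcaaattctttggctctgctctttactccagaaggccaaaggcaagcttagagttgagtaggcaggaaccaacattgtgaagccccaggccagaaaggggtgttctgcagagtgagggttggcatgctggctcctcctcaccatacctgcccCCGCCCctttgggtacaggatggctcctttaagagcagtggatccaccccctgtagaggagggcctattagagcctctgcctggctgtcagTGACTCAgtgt
Motifs were searched on both strands as the letters TGANTCA (bound by AP-1 factors), GGGCGG (the GC box), CCAAT and TATAAA. Of 32851 promoter windows of the same length, 7.81% held the AP-1 letters, 35.7% the GC box, 37.4% CCAAT and 13.6% TATAAA. The Hmga1 window held 4 GC boxes, at -54, -48, -12 and 14 bases from the start, and its GC content was 74.0% against a median of 52.7% over all windows. The Hmga2 window held 1 GC box, at -133, with 57.7% GC. The Lmna window held 1 GC box, at -52, and 1 match to the AP-1 letters, TGACTCA, at 39 bases after the start. None of the 3 windows shown held CCAAT or TATAAA, and the GC box was the motif they shared. Hmga1 and Lmna each have a further annotated start; the Hmga1 one is a short way downstream and holds the same 4 GC boxes, and the Lmna one holds CCAAT at -131 and none of the other motifs. Of the 10 genes, 9 had an entry in the table. These matches describe the letters in the windows, and no binding was measured here.

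The B-type lamins did not pass the test in any comparison. Lmnb1, whose loss is the lamin sign of senescence noted above, lay at 1.14, 1.14 and 1.18 on KO late arrays, against 1.31, 1.22 and 0.54 on WT late arrays. It lay at 0.24, 0.67 and 0.96 on KO early arrays, against 1.23, 1.12 and 0.67 on WT early arrays. The KO late arrays were nearly equal and all above the KO early arrays, so Lmnb1 was not lower at late passage in KO cells. Late minus early passage was 0.53 ± 0.24 in KO cells (limma, adjusted p = 0.14) and 0.02 ± 0.24 in WT cells (adjusted p = 0.97). At late passage KO minus WT was 0.13 ± 0.24 (adjusted p = 0.78), and at early passage it was -0.38 ± 0.24 (adjusted p = 0.74). The Lmnb1 probe is printed in 10 spots per array, and its value is their mean.

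Lmnb2 lay at -1.28, -1.19 and -1.25 on KO late arrays, against -1.61, -1.26 and -1.54 on WT late arrays. It lay at -1.37, -1.25 and -1.03 on KO early arrays, against -1.25, -1.13 and -0.67 on WT early arrays. The WT late arrays were below the WT early arrays without overlap, by a narrow gap. That difference was -0.45 ± 0.16 (limma, adjusted p = 0.093), and the corresponding one in KO cells was -0.02 ± 0.16 (adjusted p = 0.93). Within slides, late minus early passage of Lmnb2 in WT cells was -0.37, -0.13 and -0.87. KO late minus WT late was 0.23 ± 0.16 (adjusted p = 0.4).

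On the probe that stands for each gene, the inner membrane genes varied least among the 10. Over all 12 arrays, Lbr spanned 0.36 log2 units, Emd 0.39 and Tmpo 0.43, and no gene-level test of them passed. Some other kept probes of these genes varied more. A_55_P1984333 of Emd read from -2.10 to -0.94 and A_55_P2184897 of Lbr from -4.57 to -3.82. Lbr encodes the lamin B receptor, which also works as a sterol reductase. It lay at 0.11, 0.07 and 0.27 on KO late arrays, against 0.14, 0.13 and -0.09 on WT late arrays, and these overlapped. On KO early arrays it lay at 0.24, 0.15 and 0.11, against 0.06, 0.01 and 0.07 on WT early arrays, which did not overlap, and the difference was 0.12 ± 0.091 (limma, adjusted p = 0.75). A dimmer Lbr probe, A_55_P2184897, gave 0.50 ± 0.16 in the same comparison (adjusted p = 0.7) and -0.45 ± 0.16 with passage in KO cells (adjusted p = 0.077).

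Emd encodes emerin, a protein with a LEM domain that binds the chromatin factor BAF. It lies on the X chromosome, and the arrays differ in Xist as given above. Its gene probe lay at 6.20, 6.11 and 6.22 on KO late arrays, against 6.12, 6.10 and 5.86 on WT late arrays. The early arrays lay at 6.25, 6.14 and 6.23 in KO cells, against 6.20, 6.21 and 6.15 in WT cells. The 12 values were close together, with WT late replicate 3 the lowest. In WT cells late minus early passage was -0.16 ± 0.087 (limma, adjusted p = 0.25), and at late passage KO minus WT was 0.15 ± 0.087 (adjusted p = 0.33). After quantile normalization the passage differences of the gene probe were 0.15 in KO cells, against -0.03 in the fit above, and 0.00 in WT cells. The direction of that probe with passage thus depended on the scaling. The 4 Emd probes did not share a sign: between KO late and WT late they ranged from -0.22 to 0.15. With passage they ranged from -0.38 to 0.36 in WT cells and from -0.25 to 0.03 in KO cells, and 0 passed. A_55_P1984337, annotated to another transcript than the gene probe, fell without overlap in both genotypes. It gave -0.22 ± 0.1 in WT cells (limma, adjusted p = 0.19) and -0.25 ± 0.1 in KO cells (adjusted p = 0.12). Probe A_55_P2160648 read 4.48 on WT early replicate 1 and at least 5.70 on the other 11 arrays.

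Tmpo encodes the LAP2 proteins through several splice forms, and RefSeq lists 8 transcripts. Its gene probe lay at 2.50, 2.53 and 2.49 on KO late arrays, against 2.53, 2.65 and 2.22 on WT late arrays. On KO early arrays it lay at 2.50, 2.59 and 2.60, against 2.40, 2.41 and 2.53 on WT early arrays. On this probe the groups overlapped in each comparison, and the largest difference was 0.11 ± 0.11, between KO early and WT early (limma, adjusted p = 0.78). The other 3 Tmpo probes were higher in KO early than in WT early without overlap, by 0.21 to 0.43. None of them passed (adjusted p of 0.7 to 0.71). A probe annotated to another Tmpo transcript, A_65_P10450, did differ with passage in WT cells. It lay at -2.23, -2.14 and -2.13 on WT late arrays, against -2.64, -2.93 and -2.62 on WT early arrays, which do not overlap. This probe rose by 0.56 ± 0.11 on the log2 scale (adjusted p = 0.014 over the 24359 probes), while the other 3 Tmpo probes gave 0.02, 0.05 and 0.09.

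Hmgb1 encodes a DNA-bending protein that acts as an alarm signal outside the cell. On its brightest probe it lay at 5.62, 5.55 and 5.72 on KO late arrays, against 5.55, 5.49 and 4.77 on WT late arrays. It lay at 5.94, 5.56 and 5.34 on KO early arrays, against 5.80, 5.52 and 4.18 on WT early arrays. Replicate 3 was low in both WT groups, and the other 10 arrays lay between 5.34 and 5.94. No comparison passed on this probe: KO late minus WT late was 0.36 ± 0.37 (limma, adjusted p = 0.6), KO early minus WT early was 0.45 ± 0.37 (adjusted p = 0.77), and late minus early passage was 0.01 ± 0.37 in KO cells (adjusted p = 0.99) and 0.10 ± 0.37 in WT cells (adjusted p = 0.88). Within slides, KO minus WT was 0.07, 0.06 and 0.95 at late passage and 0.14, 0.04 and 1.16 at early passage. Without WT late replicate 3 the late difference was 0.11, and without WT early replicate 3 the early one was -0.04.

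The probes of Hmgb1 did not read replicate 3 of WT early alike. Probes A_55_P2025153, A_55_P2082986 and A_55_P2131483 read 4.18, 3.57 and 1.74 there, in each case the lowest of the 12 arrays. Probes A_55_P2032708, A_55_P2013501 and A_55_P2018283 read 4.19, 4.05 and -0.27 there, close to their WT early replicate 2 values of 4.38, 4.25 and -0.30. All 6 kept probes were higher in KO late than in WT late cells, by 0.31 to 0.36, and all 6 had their lowest late value on WT late replicate 3. The dimmest and least variable of them, A_55_P2018283, passed the test. It lay at -0.10, -0.25 and -0.10 on KO late arrays, against -0.40, -0.45 and -0.52 on WT late arrays (difference 0.31 ± 0.079, adjusted p = 0.044 over the 24359 probes). With passage the 6 kept probes differed in sign and 0 passed (limma). They ranged from -0.33 to 0.19 in WT cells and from -0.26 to 0.05 in KO cells. The 3 probes lowest on WT early replicate 3 gave the positive differences in both genotypes. In WT cells A_55_P2032708 and A_55_P2013501 each gave -0.33 ± 0.15 (adjusted p = 0.18 and 0.19). There A_55_P2018283 gave -0.19 ± 0.079, without overlap (adjusted p = 0.15). In RefSeq, 13 other loci are named after Hmgb1, and which probes also read their transcripts is not known here.

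**Figure D3:**
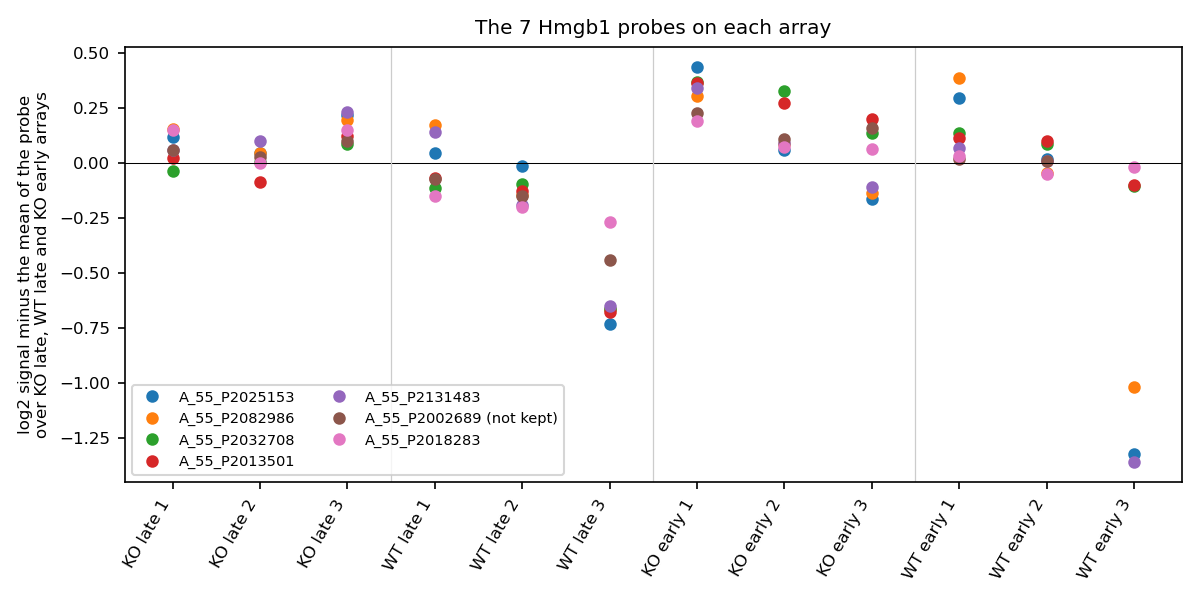
Log2 signal of the 7 Hmgb1 probes on each of the 12 arrays, each probe centred on its mean over the KO late, WT late and KO early arrays. On WT early replicate 3, 3 probes lie far below their other values and 3 do not, and the probe that was not kept has no value there.

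Hmgb2, whose level falls in senescent human fibroblasts, lay at 3.17, 3.11 and 3.19 on KO late arrays, against 2.81, 3.03 and 2.49 on WT late arrays. It lay at 2.87, 3.13 and 3.35 on KO early arrays, against 3.02, 3.02 and 2.68 on WT early arrays. KO late was above WT late on every array, and the early groups overlapped. The late difference was 0.38 ± 0.16 (limma, unadjusted p = 0.04, adjusted p = 0.18), and within slides it was 0.35, 0.08 and 0.70. Late minus early passage was 0.04 ± 0.16 in KO cells (adjusted p = 0.89) and -0.13 ± 0.16 in WT cells (adjusted p = 0.63). Hmgb2 thus did not pass in any comparison.

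The 10 genes did not move as 1 group. Over all arrays Hmga1 spanned 2.30 log2 units, Hmga2 2.13, Hmgb1 1.76, Lmna 1.15 and Lmnb1 1.07. For KO late minus WT late, 7 of 10 differences were positive and the median was 0.109, against -0.0062 for all genes. In KO cells with passage, 7 of 10 were negative and the median was -0.0272, against -0.052 for all genes. With passage in WT cells the medians were -0.0396 for the 10 genes and -0.0077 for all genes, and between KO early and WT early they were 0.117 and 0.021. Each of these medians is small beside the differences of the HMGA genes.

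As a measure of likeness, each gene was centred on its mean and the root mean square distance between 2 genes was taken over the 12 arrays. Hmga1 and Hmga2 lay 0.269 log2 units apart, Lmna and Hmga2 0.319, and Lmna and Hmga1 0.428. Hmga1 and Hmgb1 were the farthest apart of the 10 genes, at 0.98, and Lbr and Emd the closest, at 0.0795; genes that vary little are close by construction. Among all genes tested, the 3 most like Hmga1 were Cd44, a hyaluronan receptor (0.139), S100a4, a calcium-binding protein (0.16), and Dyrk3, a protein kinase (0.212). Those most like Hmga2 were the unnamed probe A_55_P2005672 (0.16), Anxa1, which encodes annexin A1 (0.163), and Prkar2b, a regulatory subunit of protein kinase A (0.164). Those most like Lmna were Slc35e4 (0.0699), Ufsp1 (0.086) and Acot7, an acyl-CoA thioesterase (0.0915). The arrays are shared by all genes, so these distances are descriptions.

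**Figure D4:**
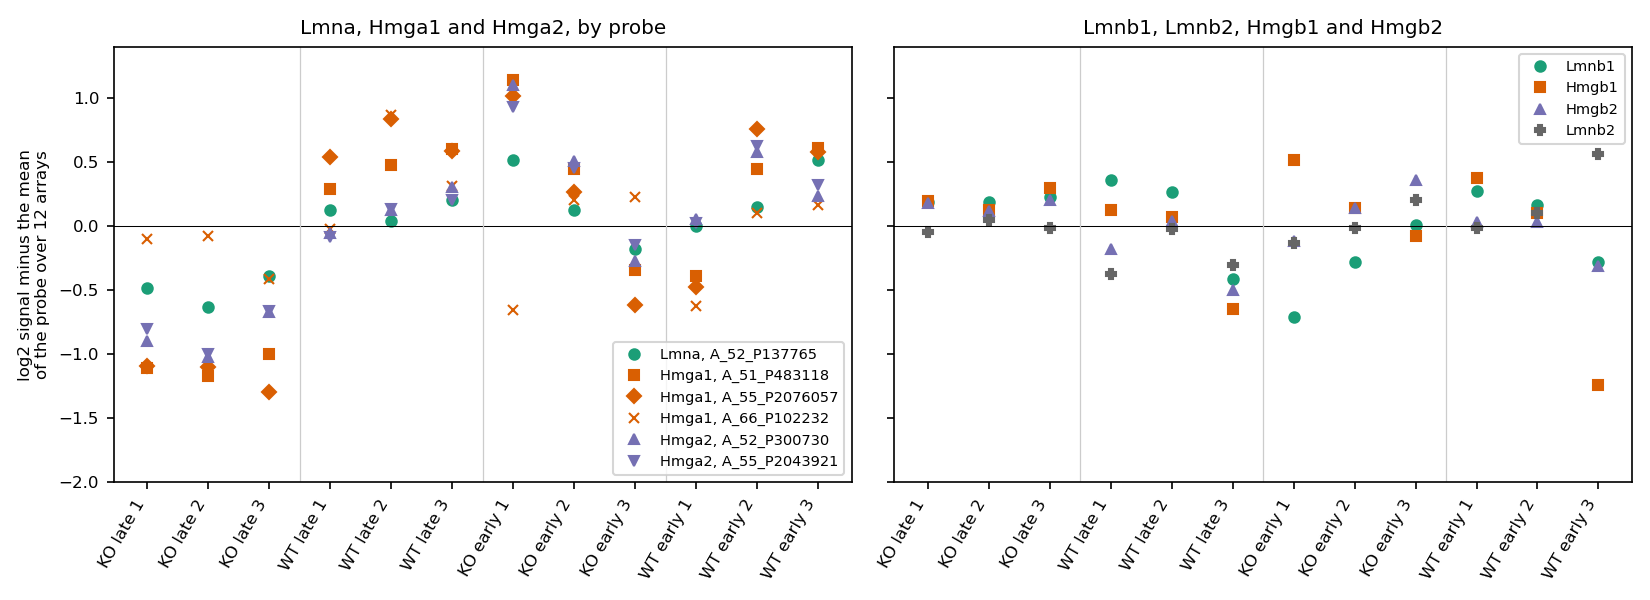
Log2 signal on the 12 arrays, centred on each probe's mean, for the 6 probes of Lmna, Hmga1 and Hmga2 (left) and for the gene's probe of Lmnb1, Lmnb2, Hmgb1 and Hmgb2 (right). On the left 5 probes are below their mean on the 3 KO late arrays and above it on KO early replicates 1 and 2, while the dimmest Hmga1 probe (A_66_P102232) is lowest on KO early replicate 1; on the right the KO late arrays lie near the mean, and the brightest Hmgb1 probe is lowest on WT early replicate 3.

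Markers of other cell types moved in the same comparisons as the HMGA genes and Lmna. Between KO late and WT late, 5 of 9 cartilage markers tested were higher (Sox9, Col9a1, Hapln1, Cnmd and Epyc) and 0 lower, with 7.8% of all genes called. Cnmd and Col11a2 passed the filter on dim probes only through KO late, so the filter partly fixed the call of Cnmd and the number tested. Epyc was at background on all WT late arrays. The summed signal of the cartilage list, in units of the 75th percentile, was 26.5 to 42.6 on KO late arrays, against 25.9 to 31.1 on WT late arrays. Of 14 macrophage markers 2 were lower (Cd68 and Lyz2) and 13 had a negative difference. Their summed signal was 43.7 to 82.4 on KO late arrays, against 87.7 to 144 on WT late arrays, and all 14 were well above background on every array of both groups. Of 4 skeletal muscle markers tested, of 9 listed, Des (at background on all KO late arrays) was lower and 0 were higher. Their summed signal ran the other way, at 0.339 to 0.371 on KO late arrays, against 0.278 to 0.346 on WT late arrays, and Tnnt1 differed by 0.53 ± 0.19 (limma, adjusted p = 0.11). Among the 12 fibroblast markers, Col3a1 and Twist1 were higher and Thy1 and S100a4 lower. With passage in KO cells, 3 cartilage markers rose (Sox9, Hapln1 and Cnmd), with 9.79% of all genes called higher. In the same comparison 2 skeletal muscle markers (Des and Actc1) and 1 epithelial marker of 3 tested (Krt18) fell, with 9.27% of all genes called lower. Des and Actc1 were at background on all KO late arrays, so the size of their falls is not given. No macrophage marker passed (limma, 1 of 14 at an unadjusted p under 0.05, against 6635 of all 19507 genes). The summed cartilage signal was 26.5 to 42.6 on KO late arrays, against 29.3 to 40 on KO early arrays, and the macrophage sum was 43.7 to 82.4 on KO late arrays, against 57 to 77.4 on KO early arrays. The summed skeletal muscle signal was 0.339 to 0.371 on KO late arrays, against 0.526 to 0.632 on KO early arrays. Of the 12 fibroblast markers, 4 fell with passage in KO cells (log2 differences of -2.58 for Fap, -1.76 for Thy1, -1.51 for Prrx1 and -1.28 for S100a4) and 1 rose (0.58 for Twist1), and their summed signal was 520 to 579 on KO late arrays, against 646 to 707 on KO early arrays. In such bulk samples, fewer cells of a type and less RNA per cell cannot be told apart. The part of other cell types in the results for Hmga1, Hmga2 and Lmna was not tested.

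Of 27 partners of the lamina, 3 fell with passage in KO cells, which is near the 9.27% of all genes called lower there. With passage in WT cells 1 fell, with 10.6% of all genes called in either direction. Between KO late and WT late 0 passed with limma, against 7.8% of all genes. At an unadjusted p under 0.05 there were 3, against 4852 of all 19507 genes. Between KO early and WT early 0 passed, and 2 had an unadjusted p under 0.05, against 1191 of all 19507 genes. Tmem43, which encodes the inner membrane protein LUMA, fell in both, by 0.54 ± 0.087 on the log2 scale in KO cells (limma, adjusted p = 0.0035) and by 0.47 ± 0.087 in WT cells (adjusted p = 0.011). It lay at 1.52, 1.50 and 1.45 on KO late arrays, against 2.09, 2.00 and 2.00 on KO early arrays, and at 1.78, 1.81 and 1.72 on WT late arrays, against 2.14, 2.16 and 2.41 on WT early arrays. Cbx5, which encodes the heterochromatin protein HP1 alpha, fell by 0.50 ± 0.14 in KO cells (adjusted p = 0.032). Nup210, a membrane protein of the nuclear pore, was not well above background on any KO late array and averaged -5.13 on KO early arrays, so it was at least 2.76-fold lower at late passage in KO cells (adjusted p = 0.0074). The bound sets the KO early mean against the lowest signal called well above background on each KO late array. The list's median difference was 0.06 with passage in KO cells, against -0.052 for all genes.

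Among 11 other HMG proteins tested of 12 listed, 1 was higher in KO late than in WT late, 1 fell with passage in WT cells and 2 fell with passage in KO cells. Of all genes, 7.8% were called between KO late and WT late and 10.6% with passage in WT cells. With passage in KO cells 9.27% of all genes were called lower. Hmgn2, which binds nucleosomes, lay at 3.93, 3.88 and 3.98 on KO late arrays, against 3.41, 3.61 and 3.48 on WT late arrays. The difference was 0.43 ± 0.088 (limma, adjusted p = 0.02), opposite in sign to those of the HMGA genes. With passage in WT cells Hmgn2 fell by 0.38 ± 0.088 (adjusted p = 0.025). In KO cells Hmg20b, a subunit of the LSD1 corepressor complex, fell by 0.33 ± 0.074 (adjusted p = 0.014) and Hmgn1 by 0.30 ± 0.095 (adjusted p = 0.05 as rounded, under the threshold).

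Of 7 receptors reported for extracellular HMGB1, 6 were tested, and 3 were lower in KO late than in WT late cells and 0 higher. Of all genes, 4.32% were called lower in that comparison. Ager, which encodes the receptor RAGE, was above background on 1 array and was not tested. Tlr2 lay at -0.52, -0.49 and -0.55 on KO late arrays, against 0.05, 0.28 and 0.18 on WT late arrays, and differed by -0.69 ± 0.12 (limma, adjusted p = 0.012). Cd24a differed by -1.27 ± 0.33 (adjusted p = 0.042) and Havcr2 by -1.50 ± 0.36 (adjusted p = 0.033). With passage, Tlr2 and the chemokine receptor Cxcr4 rose in both genotypes: Tlr2 by 0.39 ± 0.12 in KO cells (adjusted p = 0.047) and 1.03 ± 0.12 in WT cells (adjusted p = 0.0016), and Cxcr4 by 1.51 ± 0.45 in KO cells (adjusted p = 0.041) and 2.18 ± 0.45 in WT cells (adjusted p = 0.016). Cd24a fell by 1.54 ± 0.33 in KO cells (adjusted p = 0.01). Tlr2 and Havcr2 are also expressed by macrophages, whose markers moved as given above, and the part of those cells was not tested.

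The let-7 axis of Hmga2 was read through 6 of 7 genes, since Lin28b was not above background on any array. Between KO and WT 0 of the 6 passed at either passage (limma). At an unadjusted p under 0.05 there was 1 at late and 0 at early passage, against 4852 and 1191 of all 19507 genes. With passage in KO cells 2 fell, Igf2bp1 by 0.57 ± 0.13 (limma, adjusted p = 0.016) and Igf2bp3 by 0.54 ± 0.13 (adjusted p = 0.018), and 0 rose. Both encode RNA-binding proteins of embryonic tissue. Of all genes, 9.27% were called lower with passage in KO cells. In WT cells all 6 differences were negative and 0 passed, against 10.6% of all genes. At an unadjusted p under 0.05 there were 4 in WT cells, against 5552 of all 19507 genes.

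All 24 proliferation genes tested had a negative difference with passage in KO cells, with a median of -0.24 against -0.052 for all genes. Of the 24, 4 were called lower, against 9.27% of all genes. They were Rrm2, a subunit of ribonucleotide reductase (-0.71 ± 0.14, limma, adjusted p = 0.0088), the cyclin E gene Ccne1 (-0.58 ± 0.12, adjusted p = 0.011), the mitotic kinase gene Aurka (-0.49 ± 0.12, adjusted p = 0.018) and the cyclin A gene Ccna2 (-0.38 ± 0.12, adjusted p = 0.05 as rounded, under the threshold). In WT cells with passage 0 passed, against 10.6% of all genes, with 19 of 24 differences negative. At an unadjusted p under 0.05 there were 6 in WT cells, against 5552 of all 19507 genes. Between KO and WT 0 passed at either passage. At an unadjusted p under 0.05 there were 4 at late and 0 at early passage, against 4852 and 1191 of all 19507 genes. Mki67, a common proliferation marker, lay between 2.92 and 3.16 on KO late arrays, against 3.20 to 3.36 on KO early arrays.

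Of 7 inhibitors of cyclin-dependent kinases, 0 passed with passage in WT cells (limma), against 10.6% of all genes. At an unadjusted p under 0.05 there were 5 in WT cells, against 5552 of all 19507 genes. With passage in KO cells 3 of the 7 fell and 0 rose, against 9.27% lower and 9.79% higher of all genes. Cdkn2b fell by 1.27 ± 0.18 on the log2 scale (limma, adjusted p = 0.0021), Cdkn1a by 0.77 ± 0.14 (adjusted p = 0.0057) and Cdkn2d by 0.65 ± 0.14 (adjusted p = 0.012). Cdkn1a encodes p21 and Cdkn2b p15, which block cell cycle kinases. Cdkn1a was also lower in KO late than in WT late cells (-0.66 ± 0.14, adjusted p = 0.023), while Cdkn2c was higher (0.64 ± 0.15, adjusted p = 0.035).

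**Figure D5:**
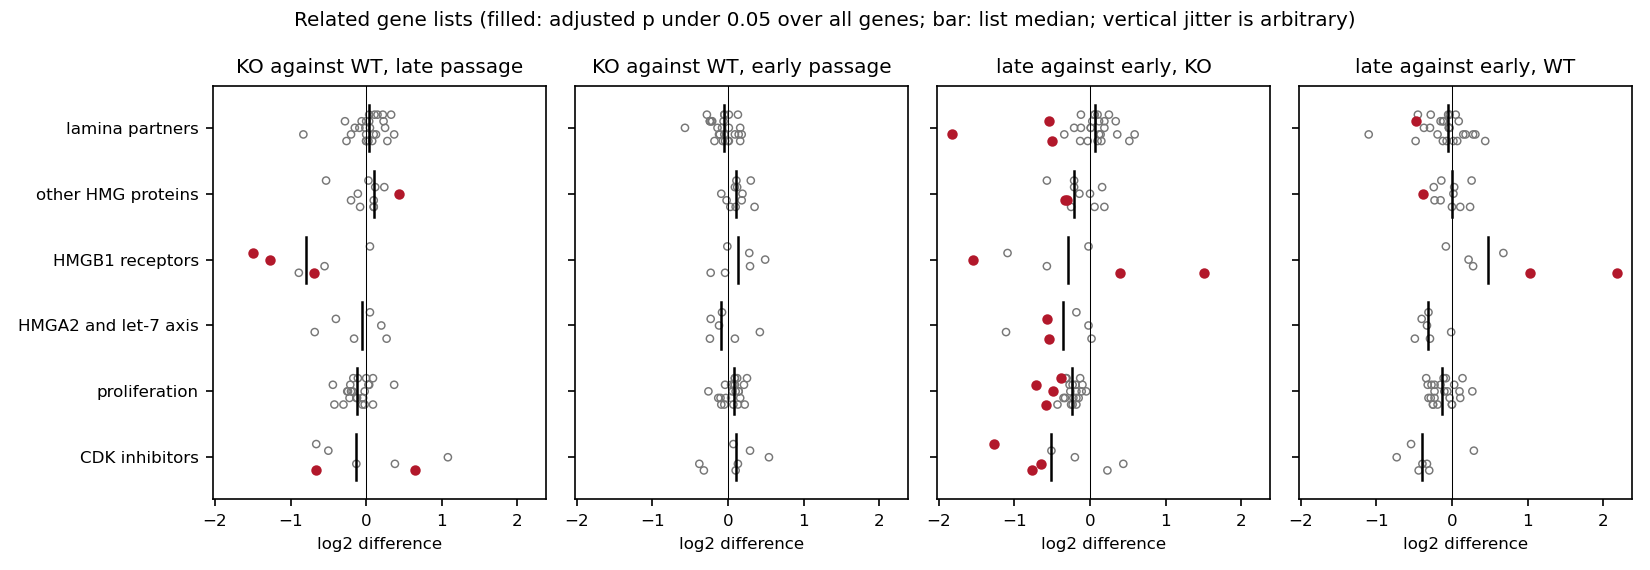
Log2 differences of the genes of 6 related lists in the 4 comparisons of groups, with KO over WT in the left pair of panels and late over early passage in the right pair. Each circle is a gene, filled red where the adjusted p was under 0.05 over all 19507 genes (limma), and bars are list medians. All 24 proliferation genes lie left of 0 for late against early passage in KO cells, and 3 HMGB1 receptors are filled left of 0 for KO against WT at late passage.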

How the data were processed

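Spot intensities in the deposited scanner files were background-subtracted by Agilent Feature Extraction, in version 11.5.1.1 per the file headers and 10.7.3.1 per the submitters' processing notes. The authors' deposited table of log2 values (22887 probes, 3175 values missing) served as an alternative. Set against the scanner values (r of at least 0.998), it was scaled per array and centred per probe, with column medians from -0.043 to 0.023; its probe filter was not given in the sources.

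Outlier spots were left out, spots of a probe averaged, and the array's 75th percentile (intensity 565.4 to 903.6, 0 probes saturated) subtracted on the log2 scale. A probe was kept (24359 in all) if all 3 arrays of some group had it well above background, and the probe with the highest mean stood for a gene. Symbols came from RefSeq (GRCm38.p6), which matched 27969 of 28290 probes with a RefSeq accession. The arrays were annotated on another build, so coordinates come only from the RefSeq promoter table.

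limma 3.58.1 in R 4.3.3 fitted 4 group means to 12 arrays, with Benjamini-Hochberg adjustment over 19507 genes, or over 24359 probes where probes were tested singly. The spread is pooled over groups, whose genes had a median SD of 0.0838 in KO late, 0.159 in WT late, 0.141 in KO early and 0.215 in WT early. With 3 arrays per group precision is limited, and an exact two-sided permutation test could not give a p below 0.1. The labels do not say which replicates share an animal, and the fit takes the 3 arrays of a group as independent.

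The 10 genes and the gene lists were chosen with earlier results of these data known. Named genes are the 10, up to 4 called genes of each list and comparison with the smallest adjusted p, and the 3 genes nearest to each called one. Cell type markers, Ager, Lin28b and Mki67 are named although this rule does not hold them, and were added after their values were seen. The scanner files carry a median and no mean signal, so the alternative with normexp correction (offset 50) used the median. Deviations of same-numbered WT late and WT early arrays from their group means correlated at 0.28, 0.24 and 0.14. These arrays share a slide and also match in Xist and the Y-linked genes. A shared slide and a shared animal therefore cannot be told apart there. The fit was tested on simulated data.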

Additional observations from a re-analysis of the deposited data

How the results depend on the processing

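Over 20 alternatives, the passage call of Hmga2 in KO cells remained in all 20 (adjusted p 0.0016 to 0.049), that of Hmga1 in 19 (0.0033 to 0.05) and that of Lmna in 14 (0.011 to 0.1), while Hmga1 between KO late and WT late kept its call in 14 (0.0041 to 0.093). No called difference changed sign. Between KO late and WT late, 1 of 10 genes was called, 2 after quantile normalization (Lmna and Hmga1), 3 after normexp correction or with only the groups compared in the fit (Lmna, Hmga1 and Hmga2), 0 without a filter on dim probes and 2 with every kept probe tested on its own (Hmgb1 and Hmga1). Leaving out 1 array gave 0 to 3: 0 without any 1 KO late array, WT late replicate 2 or WT late replicate 3, 3 without KO early replicate 1 or 3, and 2 without WT early replicate 3. With passage in KO cells the count of 3 became 1 to 3, with 1 (Hmga2) without KO late replicate 1. With passage in WT cells it was 0, and 1 (Tmpo) with every kept probe tested on its own. The passage response differed between genotypes for 0 genes, and for 0 to 2 with 1 array left out: without KO early replicate 3, Hmga1 gave -2.11 (adjusted p = 0.044) and Hmga2 -1.50 (adjusted p = 0.046). Leaving out KO late replicates 1 and 2, the arrays with Xist, an alternative chosen after seeing the data, the counts were 0 between KO late and WT late and 0 with passage in KO cells.

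Over all genes, 1522 were called between KO late and WT late, against 615 without the filter, 258 to 2339 with 1 array left out and 1 without the Xist arrays. With passage in KO cells 3718 became 2337 without the filter, 1800 to 4794 with 1 array left out and 163 without the Xist arrays; in WT cells 2070 became 552 with only the groups compared, 1003 without the filter, 1158 to 2483 with 1 array left out and 855 without the Xist arrays. The share of higher calls was 44.7% between KO late and WT late and 55.9% after quantile normalization, and with passage in WT cells 58.1% and 48.1% after normexp correction. The passage response had 18 calls, 38 after normexp correction, 1 to 224 with 1 array left out. The causes were not tested. With the replicate number, which is the slide, as a replicate block, the calls among the 10 genes were unchanged (1, 0, 0, 3 and 0 over the 5 comparisons). Deviations of same-numbered arrays correlated at -0.053, 0.089 and 0.032 between KO late and WT late. The values were 0.059, 0.056 and 0.16 between KO early and WT early, and 0.03, 0.079 and -0.092 between KO late and KO early.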
